A study of Mus musculus with 18 samples.

Results

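Hox genes encode transcription factors with a homeodomain that mark the position of a cell along the body and limb axes. The mouse carries 39 of them in 4 clusters, HoxA, HoxB, HoxC and HoxD, and each gene is numbered from 1 to 13 after its paralog group. All genes whose symbol has this form were taken, and 37 of the 39 were analysed among the 55401 genes of the count table (10 HoxA, 10 HoxB, 9 HoxC and 8 HoxD genes). The other 2 were not analysed here.

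Genes of a cluster are ordered along the chromosome as they are used along the body. Low-numbered genes are active from the hindbrain and neck backwards, middle numbers in the trunk, and the highest numbers in the tail, the genital region and the distal limb. Fibroblasts taken from an embryo keep much of this pattern in culture, so that Hox transcripts record where in the body a culture came from. Hox proteins bind DNA with partners of the TALE family (Pbx, Meis), retinoic acid helps to set the onset of the low-numbered genes, and Polycomb and Trithorax proteins hold the clusters off or on.

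RNA-seq had been carried out on 18 libraries of mouse embryonic fibroblasts (MEFs), which are primary cells grown from minced mid-gestation C57BL/6 embryos after removal of head and viscera, and the study asked how S6 kinases act in senescence driven by an oncogene. Each of 6 groups had 3 libraries. In the S6K1 series, S6K1 wild-type (WT) cells carried an empty vector (EV) or a retroviral vector for constitutively active HRAS (RAS), and S6K1 knockout (KO) cells, from littermates of WT embryos, carried RAS. In the S6K1/S6K2 series, WT cells carried EV or RAS and S6K1/S6K2 double knockout (DKO) cells carried RAS, with WT and DKO embryos from different mothers. KO or DKO cells with EV were not analysed here. EV and RAS libraries of WT cells with the same number in a series were taken as 1 line. Series, mothers and any batch cannot be told apart.

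The libraries held 8319445 to 14402442 counts, of which 3983 to 8690 were Hox counts. A count of 0 allowed at most 0.361 CPM (counts per 1000000) in the library with the fewest counts. No pair of libraries within a group agreed within sampling noise (chi-square divided by its degrees of freedom was at least 7.98). Rps6kb1, the S6K1 gene, was at 23.8 to 37.5 CPM in KO and 34.2 to 39.2 CPM in DKO libraries against 63.9 to 104.0 CPM in WT libraries, and Rps6kb2 was at 2.65 to 3.0 CPM in DKO libraries against 19.7 CPM or more in all others. All 12 fibroblast markers were above 3 counts in every library, and the muscle regulators Myod1 and Myf5 were at 0 counts in all 18. All 10 macrophage markers were above 3 counts in every library but those of the DKO group, where 9 or 10 were, and their summed level ranged from 39.2 to 1778 CPM. Among the 6 endothelial, 6 epithelial, 7 neural and 5 cartilage markers, Tie1, Krt5, Elavl3 and Matn1 had at most 2 counts in any library. Of the same lists, Kdr had 29 to 106 counts, Krt18 4 to 1827, Nes 161 to 5476 and Sox9 134 to 301. Des, a muscle marker, had 50 to 340 counts. A low member of a list thus does not show that its cell type was absent.

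Promoters are given for 4 members that carry the differences described here: Hoxd13 and Hoxa13, from the 5′ ends of their clusters, Hoxb8 from the middle of HoxB and Hoxa5 from the middle of HoxA. Each spans 250 bases before to 50 bases after the RefSeq start (GRCm38.p6), written 5′ to 3′ on the gene's strand, with the CpG dinucleotide, which reads CG on both strands, in capitals.
Hoxd13, chr2:74667975-74668274, plus strand: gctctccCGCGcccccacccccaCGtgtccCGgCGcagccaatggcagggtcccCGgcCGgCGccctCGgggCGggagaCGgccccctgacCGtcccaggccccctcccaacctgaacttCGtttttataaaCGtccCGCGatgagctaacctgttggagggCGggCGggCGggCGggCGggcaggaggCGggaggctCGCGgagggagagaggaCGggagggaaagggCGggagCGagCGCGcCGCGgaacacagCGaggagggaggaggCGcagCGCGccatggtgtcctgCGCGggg
Hoxa13, chr6:52260831-52261130, minus strand: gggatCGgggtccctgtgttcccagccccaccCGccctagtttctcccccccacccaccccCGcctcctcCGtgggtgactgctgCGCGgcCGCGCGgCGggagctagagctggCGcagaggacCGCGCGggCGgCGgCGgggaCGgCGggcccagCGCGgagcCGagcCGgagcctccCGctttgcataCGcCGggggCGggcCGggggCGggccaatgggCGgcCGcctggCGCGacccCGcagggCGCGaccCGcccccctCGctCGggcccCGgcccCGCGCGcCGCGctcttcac
Hoxb8, chr11:96281655-96281954, plus strand: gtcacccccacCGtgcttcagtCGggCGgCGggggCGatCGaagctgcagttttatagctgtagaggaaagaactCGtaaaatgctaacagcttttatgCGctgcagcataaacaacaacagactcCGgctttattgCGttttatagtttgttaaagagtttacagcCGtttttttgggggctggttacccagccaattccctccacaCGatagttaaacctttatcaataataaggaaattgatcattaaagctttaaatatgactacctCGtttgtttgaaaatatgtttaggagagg
Hoxa5, chr6:52204538-52204837, minus strand: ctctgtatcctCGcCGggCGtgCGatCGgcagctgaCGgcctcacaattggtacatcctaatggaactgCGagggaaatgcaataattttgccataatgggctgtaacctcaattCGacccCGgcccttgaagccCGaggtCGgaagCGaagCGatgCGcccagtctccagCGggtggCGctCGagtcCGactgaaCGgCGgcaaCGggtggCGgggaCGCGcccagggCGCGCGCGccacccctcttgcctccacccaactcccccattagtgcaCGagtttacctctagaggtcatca
The Hoxd13 window held 37 CpGs and the Hoxa13 window 45, counts that 5.58% and 1.93% of 32851 mouse promoter windows of 300 bases reached or passed. Hoxb8 had 13 (reached by 37.9% of windows) and Hoxa5 had 29 (reached by 12.9%). A promoter was found for 21 of the 37 members, and the median over their 23 windows was 15 CpGs against 7 over all windows.

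Nearly all Hox genes were transcribed in these cells. Of the 37 members, 34 exceeded 3 counts in at least 1 library and 27 had at least 10 counts in every library. Hoxb1, a hindbrain gene, Hoxb13, a gene of the tail end, and Hoxc12 never exceeded 3 counts, and Hoxc11, Hoxc13, Hoxd1 and Hoxd3 were low, with at most 23 counts in any library. In the heat map of all members the quietest rows lie at both ends of HoxB, at the low-numbered end of HoxD and at the high-numbered end of HoxC. In HoxA, Hoxa2, Hoxa4 and Hoxa6 were low as well, with 5 to 32, 9 to 48 and 2 to 34 counts.

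**Figure D1:**
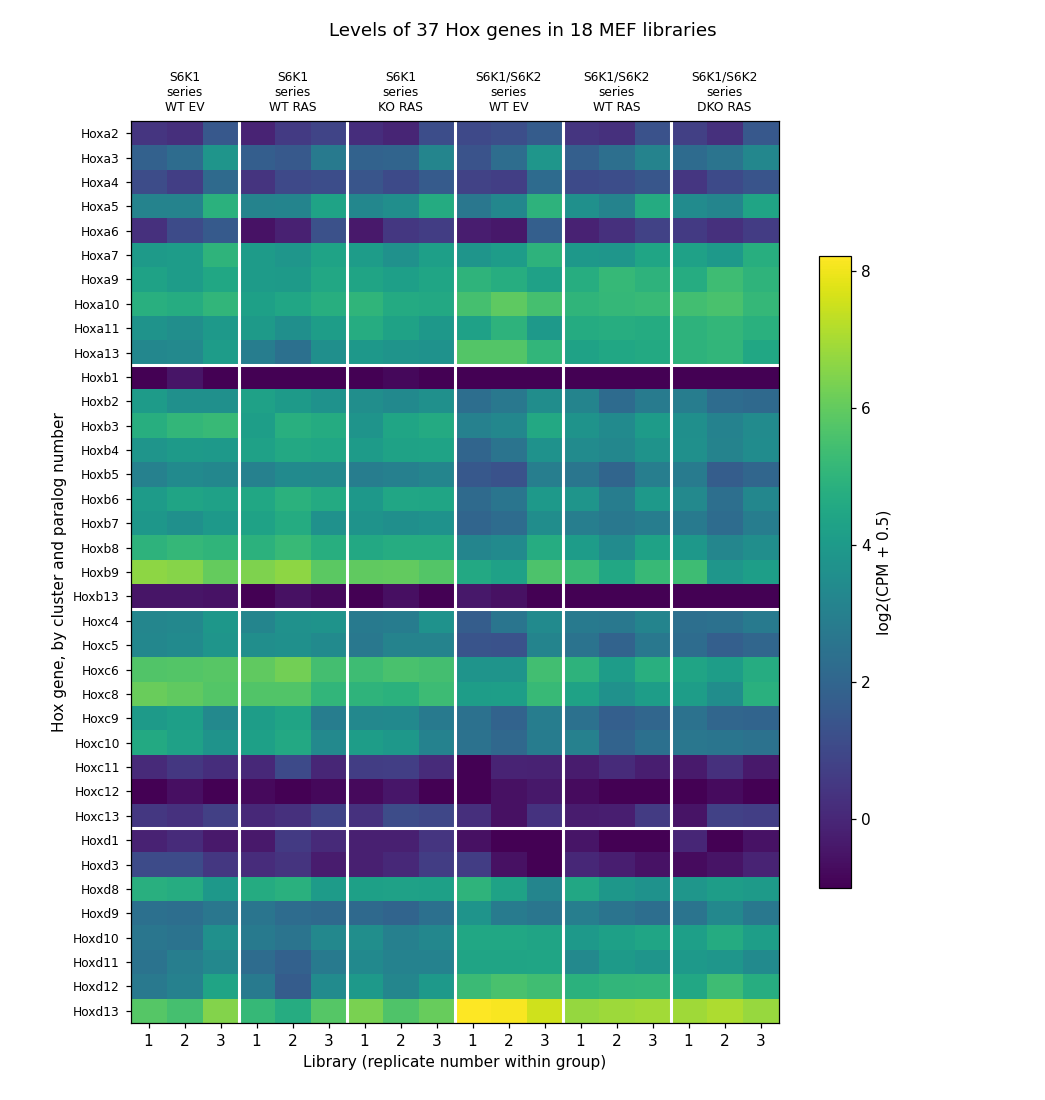
Level of 37 Hox genes (rows, by cluster and paralog number) in 18 libraries (columns, 3 per group), as log2(CPM + 0.5), with white lines between clusters and groups. Hoxd13 spans 25.6 to 297 CPM, the highest value of the map, and Hoxb9 spans 13.9 to 100.2 CPM with its low values in the S6K1/S6K2 series.

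Levels were compared between genes as CPM per kilobase of exon, averaged over the 18 libraries. In HoxD, Hoxd13, which shapes digits and external genitalia, was the highest of all 37 members in this mean (44.3 CPM per kb), followed by the limb gene Hoxd12 (8.60), Hoxd8 (7.07), Hoxd10 (5.25), Hoxd9 (2.64) and Hoxd11 (2.06). Hoxd1 and Hoxd3 were at 0.171 and 0.106 CPM per kb, and the highest library of Hoxd1 was below the lowest library of Hoxd11. The order differed by group. Hoxd13 led all members in KO RAS cells and in the 3 groups of the S6K1/S6K2 series, but Hoxb9 led in WT EV and WT RAS of the S6K1 series (33.5 and 31.9 CPM per kb, against 25.5 and 15.5 for Hoxd13). Hoxd8 (8.30 and 8.49 CPM per kb) was also above Hoxd12 (4.36 and 2.50) in those groups. The same held per kb in KO RAS cells, with means of 18.6 CPM for Hoxd8 (2744 exon bases) and 13.1 CPM for Hoxd12 (2619 exon bases). In HoxB, the thoracic gene Hoxb9 led (20.3 CPM per kb), ahead of Hoxb8 (8.21), Hoxb6 (7.27) and Hoxb3 (6.19), while Hoxb4, Hoxb2, Hoxb7 and Hoxb5 were between 2.34 and 3.32. In HoxC, Hoxc6 (15.1 CPM per kb) and Hoxc8 (14.4), both active in the thorax, stood together, and their ranges over libraries overlapped nearly in full (5.25 to 30.2 and 4.78 to 29.6). Hoxc10 (5.67), Hoxc9 (3.47), Hoxc4 (3.18) and Hoxc5 (2.40) followed.

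HoxA had no single leading gene in the mean over 18 libraries. Hoxa10 (8.84 CPM per kb), Hoxa13 (8.77), Hoxa11 (7.79), Hoxa5 (7.60), Hoxa9 (6.95) and Hoxa7 (6.40) had overlapping ranges over libraries. These ranges span groups that differ, and Hoxa13 ran from 1.96 to 21.7 CPM per kb. In group means per kb, Hoxa13 led HoxA in WT EV of the S6K1/S6K2 series. It was the lowest of these genes in WT RAS of the S6K1 series. In the mean over 18 libraries Hoxa4 came next with 1.19 CPM per kb, and its highest library was below the lowest library of Hoxa7. With coding length in place of exon length the first of HoxA became Hoxa9, and with the longest transcript the runner-up became Hoxa7 in HoxA and Hoxb3 in HoxB, while Hoxb9, Hoxc6 and Hoxd13 led their clusters in the mean over 18 libraries under all 3 lengths. Hoxb7 and Hoxb8 share exon sequence (26.2% and 40.4% of their exon bases), as does Hoxd3 with Hoxd4 (29.8% of those of Hoxd3). Hoxa2 (11% of its exon bases) and the analysed Hoxa3 (33% of its exon bases) do not overlap each other. Both share exon sequence with another annotated gene of the name Hoxa3. Reads in all these shared parts may be split or lost. Exons of Hoxc5 and Hoxc10 also overlap those of Gm20398 on the same strand, and exons of Hoxd10 and Hoxd11 those of Gm20440. Exons of Hoxa3, Hoxa7, Hoxa11, Hoxb2, Hoxb3, Hoxb5 and Hoxd3 lie opposite transcripts of the other strand, whose reads cannot be told apart if strand was not used in counting.

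The clusters differed between the series in opposite directions. In WT EV cells of the S6K1 series, HoxB made up 37, 38.8 and 29.7% of the summed Hox CPM in the 3 libraries and HoxD 17.4, 16.3 and 22.4%. In WT EV cells of the S6K1/S6K2 series, HoxB made up 8.27, 8.65 and 20.6% and HoxD 60.5, 56 and 37.8%. The HoxB shares did not overlap between the 2 groups and neither did the HoxD shares, and the third library of the S6K1/S6K2 series lay nearest to the other series. Hoxd13 alone made up 8.87, 7.46 and 13.3% of Hox CPM in S6K1 series WT EV cells and 42.4, 39.8 and 24.8% in WT EV of the S6K1/S6K2 series. The paralog groups followed the same split. Groups 9 to 13 made up 46.7, 44.2 and 45.7% of Hox CPM in S6K1 series WT EV cells and 81.9, 81.2 and 60.2% in WT EV of the S6K1/S6K2 series, and groups 4 to 8 made up 45.1, 46.9 and 44.8% and 15.6, 15.8 and 33%. The summed Hox level was 609, 599 and 688 CPM in the first and 700.1, 709 and 747 CPM in the second.

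**Figure D2:**
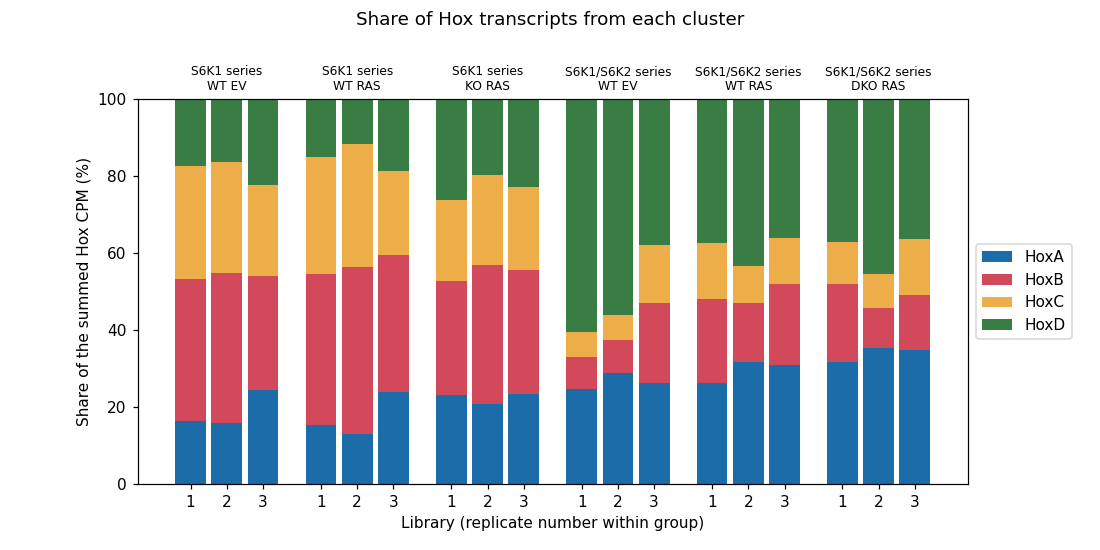
Share of the summed Hox CPM (y axis, %) that came from each cluster in each of 18 libraries (x axis, 3 per group). HoxB is the largest share in every S6K1 series library, at 29.7% or more, and HoxD is the largest share in every S6K1/S6K2 series library, at 36.1% or more.

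To compare the series, WT EV of the S6K1/S6K2 series was set against WT EV of the S6K1 series. The fit took all 18 libraries by group and treated EV and RAS libraries of a line as independent, which they are not. Of 33 tested members, 14 passed an adjusted p of 0.05 in edgeR's quasi-likelihood test (42.4%), where 8.95% of all 14483 tested genes did. Of these, 6 were higher in the S6K1/S6K2 series (4.18% of all tested genes were) and 8 were lower (4.77%). The higher ones were all from paralog groups 10 to 13 of HoxA and HoxD, and the lower ones were all from HoxB and HoxC. All 8 tested HoxB and all 8 tested HoxC genes had a negative difference, with medians of −1.15 and −1.32 on the log2 scale, where the median of all tested genes was 0.03. In these bulk samples, fewer cells of a type and less RNA per cell cannot be told apart.

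Hoxd13 (chr2:74506367-74509656 on NCBIM37, plus strand) had 54.1, 44.7 and 91.3 CPM in the WT EV libraries of the S6K1 series and 297, 282 and 185 CPM in those of the S6K1/S6K2 series. The log2 difference was 2.01 (SE 0.29, adjusted p = 0.00209 in edgeR). Hoxa13 (chr6:52207693-52210874, minus strand), its paralog in the distal limb and urogenital tract, had 9.04, 9.60 and 16.4 CPM and 53.6, 53 and 32.9 CPM, a log2 difference of 2.0 (SE 0.29, adjusted p = 0.0023 in edgeR). For both genes the groups did not overlap, and the third line was the highest in the S6K1 series and the lowest in the S6K1/S6K2 series. Hoxd12 had 6.05, 7.86 and 20.3 CPM and 38.3, 47.1 and 41.8 CPM (1.90, SE 0.43, adjusted p = 0.0155 in edgeR). Hoxd11, which with Hoxa11 forms the bones of the forearm, had 5.19, 7.18 and 9.29 CPM and 20.6, 20.2 and 20.9 CPM (1.51, SE 0.26, adjusted p = 0.00498 in edgeR). Hoxd10, a gene of lumbar levels and the hindlimb, had 5.69, 5.22 and 11.9 CPM and 22, 21.9 and 20.4 CPM (1.5, SE 0.29, adjusted p = 0.00733 in edgeR). The 3 genes were higher in every WT EV library of the S6K1/S6K2 series than in any WT EV library of the S6K1 series. Hoxa10, active in the hindlimb and the uterus, was the sixth, at 27.6, 25.3 and 32.8 CPM and 44.6, 61.1 and 44.7 CPM (0.81, SE 0.18, adjusted p = 0.0147 in edgeR). Along HoxD the log2 difference was larger at each step, from Hoxd8 (−0.20) and Hoxd9 (0.74), neither of which passed, to Hoxd13. The steps between neighbouring genes were not tested.

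The lower members were led by Hoxc10 and Hoxb9. Hoxc10 (chr15:102797227-102802324, plus strand), a gene of lumbar levels, had 23.9, 19.1 and 12.7 CPM in S6K1 series WT EV cells and 5.0, 3.82 and 6.79 CPM in WT EV of the S6K1/S6K2 series. Its log2 difference was −1.83 (SE 0.38, adjusted p = 0.0108 in edgeR). Hoxb9 (chr11:96132771-96137909, plus strand) had 99.3, 93.2 and 66 CPM and 23.1, 18.8 and 49 CPM (−1.51, SE 0.38, adjusted p = 0.025 in edgeR). Both genes were lower in every S6K1/S6K2 series library, and Hoxb9 came closest to overlap, through the third line of each series. Hoxc9, a thoracic gene, had 15.7, 17.8 and 9.57 CPM and 4.92, 3.30 and 7.05 CPM (−1.50, SE 0.38, adjusted p = 0.0241 in edgeR). Hoxc8 had 68, 62.2 and 53.4 CPM and 17, 17.5 and 36.6 CPM, and Hoxc6 had 51.7, 52.7 and 56.1 CPM and 13.1, 13.3 and 43 CPM. Hoxb8, a trunk gene also known in myeloid progenitors, had 30.8, 34.7 and 32 CPM and 8.65, 10.1 and 25.3 CPM. In all of these the first and second libraries of the S6K1/S6K2 series were the lowest. Among the remaining calls, Hoxb3 differed by −1.30 and Hoxb7 by −1.14. HoxA genes 2 to 7 had differences between −0.47 and 0.66 and none passed.

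Paralogs of the same number thus differed by cluster. In group 9, Hoxa9 (0.41) and Hoxd9 (0.74) were above 0 without passing, and Hoxb9 and Hoxc9 were lower. In group 10, Hoxa10 and Hoxd10 were higher and Hoxc10 was lower. In group 11, Hoxd11 was higher, Hoxa11 was at 0.74 (SE 0.24, adjusted p = 0.0643 in edgeR), with 12.7, 11.3 and 14.8 CPM and 18.9, 30.4 and 15.6 CPM, and the low gene Hoxc11 was at −1.27 (SE 0.70, adjusted p = 0.264 in edgeR). In group 13, Hoxa13 and Hoxd13 were higher, and Hoxc13, a gene of hair and nail, was at −0.80 (SE 0.63, adjusted p = 0.443 in edgeR). In group 8, Hoxb8 and Hoxc8 were lower and Hoxd8 had 28, 25.7 and 14.6 CPM and 31.5, 19.5 and 8.68 CPM, which overlapped. In groups 4 and 5 the HoxA members were near 0 (−0.06 and 0.01), while Hoxb4 (−1.04), Hoxb5 (−1.23), Hoxc4 (−0.83) and Hoxc5 (−1.37) were below 0 and did not pass. Hoxb6 (−1.15) and Hoxb2 (−0.90) did not pass either. In all, 7 members were higher and 14 lower in every S6K1/S6K2 series WT EV library than in every S6K1 series one, where 13.5% and 11.9% of all tested genes were.

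**Figure D3:**
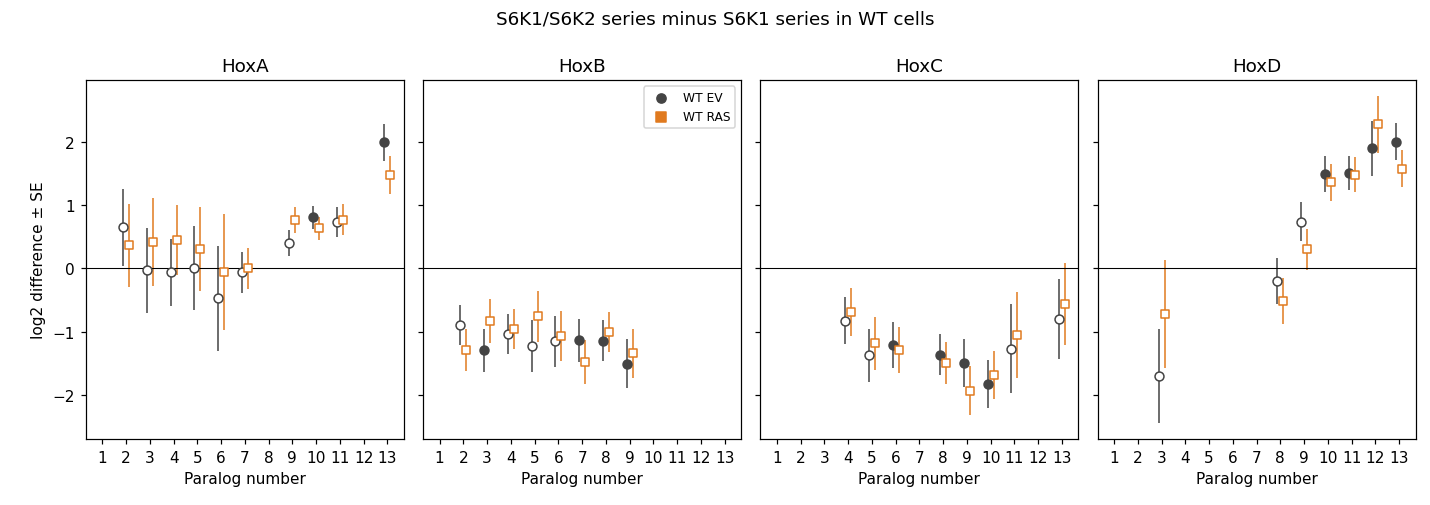
Log2 difference between the S6K1/S6K2 series and the S6K1 series in WT EV (circles) and WT RAS cells (squares), with SE bars, by paralog number in each cluster; filled marks have an adjusted p under 0.05 in edgeR. HoxA and HoxD differences are above 0 from paralog 9 on and reach 2.01 at Hoxd13 in WT EV, and all HoxB and HoxC differences are below 0.

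The same direction was seen in cells with RAS, which come from the same lines. Between the WT RAS groups, a comparison added after the data were seen, no member passed the adjusted threshold in edgeR (0.00690% of all tested genes did), and 20 of 33 had an unadjusted p under 0.05 (17.7% of all tested genes). Hoxd13 differed by 1.58 (SE 0.29, adjusted p = 0.0516 in edgeR) and Hoxc9 by −1.94 (SE 0.39, adjusted p = 0.0548 in edgeR). Across all 9 libraries of each series, 8 members did not overlap. Hoxa13, Hoxd10, Hoxd12 and Hoxd13 were higher in every S6K1/S6K2 series library, as 0.193% of all tested genes were, and Hoxb4, Hoxb7, Hoxb9 and Hoxc10 were lower in every one, as 0.283% were. The count of 14 depended on single libraries: it was 5 and 4 without the first or second WT EV library of the S6K1 series, 8 and 4 without the first or second of the S6K1/S6K2 series, and 21 without the third. Hoxd13, Hoxa13 and Hoxd11 passed whichever of the 6 libraries was left out.

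Other genes of position differed between the series too. Of 23 tested body-position factors, 10 passed (8.95% of all tested genes did), 6 higher and 4 lower in the S6K1/S6K2 series. Meox2 (2.88, SE 0.69), a factor of somites and limb muscle, and the hindlimb genes Tbx4 (2.60, SE 0.35) and Pitx1 (2.32, SE 0.38) were higher, and Alx4 (−2.18, SE 0.36), which acts at the anterior side of the limb bud, was lower (log2 difference in edgeR). Pitx1 had 4.41, 2.34 and 4.32 CPM in S6K1 series WT EV cells and 22.6, 23 and 9.71 CPM in WT EV of the S6K1/S6K2 series. Tbx5, which marks the forelimb, had 6.19, 11.4 and 24 CPM and 18.2, 14.5 and 13.4 CPM, did not pass and was chosen with its values known. Among 8 tested noncoding transcripts of the clusters, 3 passed: Hottip (2.08, SE 0.51), transcribed beside Hoxa13, and Hoxa11os (1.68, SE 0.30) were higher and Mir196a-1 (−2.40, SE 0.72), beside Hoxb9, was lower. Of 11 TALE cofactors, Pbx3 was higher (0.82, SE 0.23) and Meis1, a partner in the proximal limb, was lower (−1.02, SE 0.27). Upstream regulators had 1 of 15 (Rarg, higher), Polycomb genes 4 of 29 (all higher, Cbx6 by 0.83, SE 0.16) and Trithorax and demethylase genes 0 of 12, against the same 8.95%. The median differences were 0.63 for body-position factors and 0.21 for Polycomb genes against 0.03 for all genes tested.

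Some marker sums moved between these groups as well. Summed macrophage markers were 1565, 1196 and 319.7 CPM in the WT EV libraries of the S6K1 series and 682, 68.3 and 98.9 CPM in those of the S6K1/S6K2 series. Muscle markers, mainly Des, summed to 22.3, 19.4 and 25.2 CPM and 4.41, 5.73 and 17.7 CPM. Cartilage markers summed to 19.6, 17.1 and 19.7 CPM and 20.9, 20.8 and 43 CPM. Of these, Sox9 had a median of 19.6 CPM over all libraries. Col2a1 had a median of 0.319 CPM and a highest value of 30.2 CPM. Fibroblast markers overlapped, at 45427 to 55665 CPM and 44149 to 51037 CPM. In the same order of libraries, HoxB made up 37, 38.8 and 29.7% of Hox CPM in the S6K1 series. It made up 8.27, 8.65 and 20.6% in the S6K1/S6K2 series. The part of other cells in the Hox differences was not tested.

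To ask how RAS changed Hox genes, WT RAS was compared with WT EV in each series. Hoxd13, Hoxa13, Hoxd11 and Hoxa10 fell in the S6K1/S6K2 series, and most other members did not pass in either series. In the S6K1/S6K2 series 4 of 31 tested members passed in edgeR (12.9%), all lower, where 26.3% of all tested genes passed and 12.7% were lower. In the S6K1 series 0 of 33 passed, where 13.2% of all tested genes did, while 3 had an unadjusted p under 0.05 (26.4% of all tested genes) and DESeq2 called 1. Both shares of members were below those of all tested genes. The median log2 fold change of the tested members was −0.13 in the S6K1 series and −0.16 in the S6K1/S6K2 series, against 0.00 and −0.02 for all tested genes. By cluster the medians were −0.42 and −0.32 in HoxA, 0.12 and 0.10 in HoxB, 0.01 and 0.07 in HoxC and −0.65 and −0.50 in HoxD, and all 6 tested HoxD genes of the S6K1/S6K2 series had a negative value. These comparisons share the WT EV libraries with the comparison of the series.

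Hoxd13 was lower with RAS in every line. Its level in the S6K1/S6K2 series went from 297, 282 and 185 CPM in EV to 108, 115 and 122 CPM in RAS, and the log2 fold change was −1.15 (SE 0.18, adjusted p = 0.00192 in edgeR). S6K1 series libraries had 54.1, 44.7 and 91.3 CPM in EV and 35.2, 25.6 and 54.4 CPM in RAS, and the log2 fold change was −0.73 (SE 0.34, adjusted p = 0.209 in edgeR). The groups overlapped in the S6K1 series, where the third line was high in both, and its lines differed by −0.61, −0.79 and −0.74 on the log2(CPM + 0.5) scale. With the line as a block, Hoxd13 passed in the S6K1 series as well (−0.73, SE 0.09, adjusted p = 0.00125 in edgeR). Hoxa13 went from 53.6, 53 and 32.9 CPM to 19.4, 21.9 and 24 CPM in the S6K1/S6K2 series (−1.10, SE 0.22, adjusted p = 0.00614 in edgeR). For lines of the S6K1 series Hoxa13 went from 9.04, 9.60 and 16.4 CPM to 7.0, 4.83 and 11.5 CPM (−0.59, SE 0.34, adjusted p = 0.31 in edgeR, and −0.62, SE 0.16, adjusted p = 0.0302 in edgeR with the block). Like Hoxd13, it was lower with RAS in all 6 lines. Hoxa10 went from 44.6, 61.1 and 44.7 CPM to 32.2, 34.8 and 36.7 CPM in the S6K1/S6K2 series (−0.54, SE 0.16, adjusted p = 0.0353 in edgeR) and from 27.6, 25.3 and 32.8 CPM to 18.2, 21.2 and 27.1 CPM in the S6K1 series (−0.38, SE 0.20, adjusted p = 0.265 in edgeR, and −0.39, SE 0.11, adjusted p = 0.0389 in edgeR with the block). Hoxd11 went from 20.6, 20.2 and 20.9 CPM to 9.67, 15.9 and 13.4 CPM in the S6K1/S6K2 series (−0.67, SE 0.21, adjusted p = 0.0421 in edgeR) and lost its call with the block (−0.67, SE 0.20, adjusted p = 0.051 in edgeR). The count of 4 was 7 without the third WT EV library and 2 without the first or the third WT RAS library, and Hoxd13 and Hoxa13 passed in every one of these fits.

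**Figure D4:**
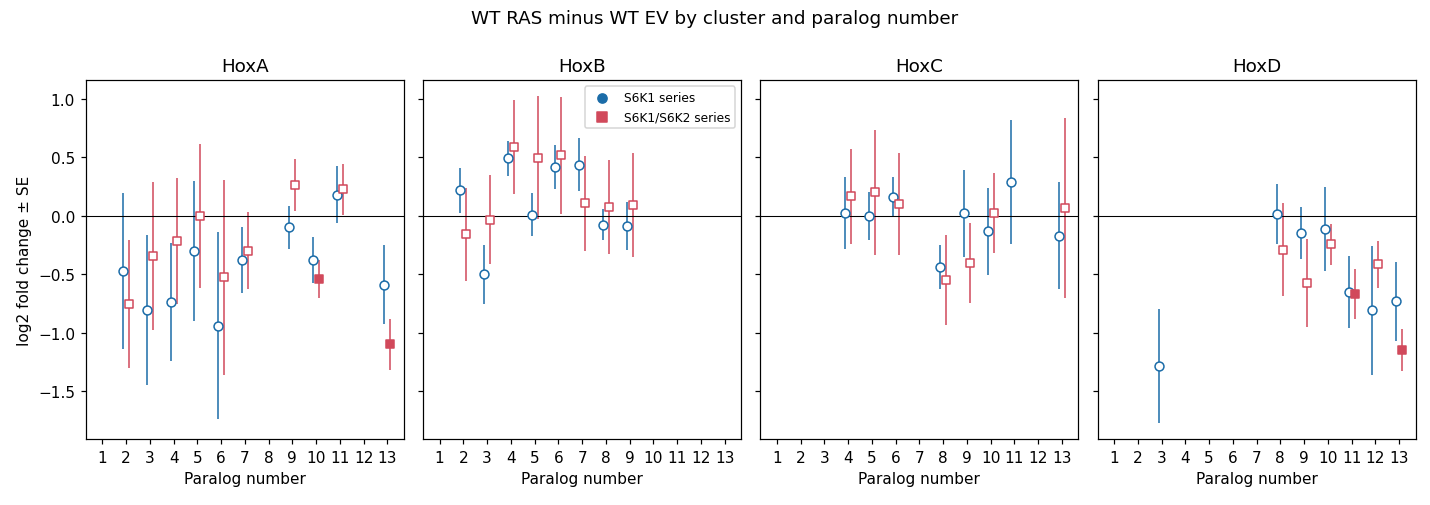
Log2 fold change of WT RAS against WT EV, with SE bars, by paralog number in each cluster, for the S6K1 series (circles) and the S6K1/S6K2 series (squares); filled marks have an adjusted p under 0.05 in edgeR. The 4 filled marks are Hoxa10, Hoxa13, Hoxd11 and Hoxd13 of the S6K1/S6K2 series, at −0.54 to −1.15.

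Since each EV library shared its line with 1 RAS library, a fit with the line as a block was set beside the first. This fit called 9 of 32 tested members (28.1%) in the S6K1 series, where 32.2% of all tested genes passed. Of these, 7 were lower (15.9% of all tested genes) and 2 were higher (16.3%). Beside Hoxd13, Hoxa13 and Hoxa10, the lower ones were Hoxa3, Hoxb3, Hoxc8 and Hoxd3. Hoxc8, a thoracic gene, went from 68, 62.2 and 53.4 CPM to 51.4, 52.5 and 33.1 CPM (−0.45, SE 0.10, adjusted p = 0.0175 in edgeR), with no overlap (14.7% of all tested genes were lower in this way). Hoxb3 went from 27.2, 34.2 and 36.5 CPM to 17.3, 27.5 and 25 CPM (−0.51, SE 0.10, adjusted p = 0.0116 in edgeR). Hoxa3, which is needed for the thymus and the parathyroids, went from 3.13, 4.23 and 13.4 CPM to 2.84, 2.49 and 6.53 CPM (−0.73, SE 0.22, adjusted p = 0.043 in edgeR). The third line was the highest in both groups for Hoxa3, and without its EV library the unblocked log2 fold change turned from −0.81 to 0.10. Hoxd3 was near the floor, at 1.64, 1.66 and 0.920 CPM and 0.621, 0.805 and 0.322 CPM (−1.27, SE 0.32, adjusted p = 0.0237 in edgeR).

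The higher ones were both from HoxB. Hoxb4, known for its role in blood progenitors, went from 13.6, 15.6 and 15.3 CPM to 18.6, 23.3 and 21.4 CPM (0.49, SE 0.10, adjusted p = 0.0124 in edgeR), and Hoxb6 from 16.3, 20.5 and 18.7 CPM to 21.9, 29 and 24.1 CPM (0.42, SE 0.10, adjusted p = 0.0172 in edgeR). For both, every RAS library was above every EV library, as for 16.1% of all tested genes. Hoxb4 was also higher with RAS in all 3 lines of the S6K1/S6K2 series, went from 3.56, 5.38 and 12.6 CPM to 10.5, 9.06 and 12.9 CPM and did not pass with the block (0.76, SE 0.32, adjusted p = 0.13 in edgeR). There the block called 3 of 29 members, all lower (26.0% of all tested genes passed and 12% were lower): Hoxd13, Hoxa13 and Hoxa10.

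Direction over the 6 WT lines was counted as a description. Of 33 members, 4 were lower with RAS in all 6 lines (Hoxa10, Hoxa13, Hoxd11 and Hoxd13) and 1, Hoxb4, was higher in all 6, where 17.8% of all tested genes were lower and 19.5% were higher in all 6. The test of the difference in RAS effect between the series called 0 of 33 members in edgeR (0% of all tested genes), with 0 at an unadjusted p under 0.05 (12.6% of all tested genes), 0 in DESeq2 and 0 with the block (0.400% of all tested genes).

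Hox cofactors and regulators were counted for RAS beside the 13.2% of all tested genes that passed in the S6K1 series and the 26.3% in the S6K1/S6K2 series. Of 11 TALE cofactors, 3 passed in the S6K1 series and 2 in the S6K1/S6K2 series, the second a share below that of all genes. In both, Pbx3 fell (−0.64, SE 0.13 and −1.16, SE 0.29) and Tgif1, which restrains transcription by TGF-β and retinoic acid receptors, rose (0.69, SE 0.18 and 1.10, SE 0.15, log2 fold change in edgeR). Meis2 fell in the S6K1 series (−0.75, SE 0.20). Of the upstream regulators, 3 of 15 and 6 of 14 passed. Aldh1a2, which makes retinoic acid, rose by 2.10 (SE 0.43) and 4.01 (SE 0.46), the retinoid-binding gene Crabp1 rose by 2.27 (SE 0.49) and 1.69 (SE 0.54), and the receptor gene Rxra changed by −0.59 (SE 0.15) and −0.75 (SE 0.11). Aldh1a3, which also makes retinoic acid, rose by 4.77 (SE 0.67) in the S6K1/S6K2 series and Cyp26b1, which breaks it down, by 2.08 (SE 0.35).

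Polycomb genes passed in 2 of 29 cases in the S6K1 series and 9 of 29 in the S6K1/S6K2 series, 7 of the 9 lower, where 13.2% and 26.3% of all tested genes passed. The Polycomb repressive complex gene Bmi1 changed by −0.53 (SE 0.12) and −0.99 (SE 0.19), Phc2 by 0.59 (SE 0.12) and 0.76 (SE 0.11), and Cbx6 by −1.04 (SE 0.19) and Pcgf5 by 1.30 (SE 0.17) in the S6K1/S6K2 series. Of 12 Trithorax and demethylase genes, 0 passed in the S6K1 series and 1, Kmt2a, in the S6K1/S6K2 series (1.03, SE 0.24). Body-position factors passed in 2 of 22 and 8 of 23 cases, with 9 of these 10 lower and medians of −0.55 and −0.65. Those of the S6K1 series were Tbx15 (−0.60, SE 0.14), a factor of dermis and limb mesenchyme, and Shox2 (−0.66, SE 0.16), a factor of the proximal limb. The largest changes of the S6K1/S6K2 series were in Meox2 (−3.65, SE 0.76), in Pax1 (−2.27, SE 0.30) and Pax9 (−1.96, SE 0.57), factors of the vertebral column, and in Tbx4 (−1.51, SE 0.30). Of the cluster noncoding transcripts, 1 of 8 and 2 of 7 passed, all lower, with Hoxb5os in both (−1.06, SE 0.29 and −1.15, SE 0.38) and Hoxa11os in the S6K1/S6K2 series (−1.20, SE 0.22).

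With the line as a block, more genes of these lists passed in the S6K1 series, as did more of all tested genes (32.2%). There it called 6 of 11 TALE cofactors, 8 of 14 upstream regulators, 7 of 29 Polycomb genes, 5 of 12 Trithorax and demethylase genes (4 of them lower), 9 of 20 body-position factors (all lower) and 2 of 8 cluster noncoding transcripts. In the S6K1/S6K2 series, where 26.0% of all tested genes passed with the block, it called 3 of 11, 7 of 14, 6 of 29, 1 of 12, 9 of 23 (8 lower) and 1 of 6 in the same order.

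Marker genes moved with RAS too. Summed fibroblast markers were 45427 to 55665 CPM in EV and 25531 to 36387 CPM in RAS of the S6K1 series, and 44149 to 51037 CPM and 26277 to 29681 CPM in the S6K1/S6K2 series. The 6 epithelial markers, mainly Krt18, summed to 4.78 to 10.4 CPM in EV and 109 to 156 CPM in RAS of the S6K1 series, and to 1.30 to 3.95 CPM and 78 to 117 CPM in the S6K1/S6K2 series. The 7 neural markers, mainly Nes, summed to 114 to 136 CPM and 209 to 346 CPM, and to 25 to 137 CPM and 339 to 491 CPM. Their part in the Hox changes was not tested.

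To ask what the loss of S6 kinases changed, KO RAS was compared with WT RAS and DKO RAS with WT RAS. Neither comparison called a Hox gene without a block. Both use the WT RAS libraries of the RAS comparisons. In the S6K1 series 0 of 33 members passed in edgeR and 0 in DESeq2, and 0.00712% of all tested genes passed. At an unadjusted p under 0.05 there were 8 members and 6.86% of all tested genes. In the S6K1/S6K2 series 0 of 31 passed in edgeR and 0 in DESeq2, 0 had an unadjusted p under 0.05 (1.29% of all tested genes did), and 0.0216% of all tested genes passed (0 of 30 members and 0.0449% of all tested genes with the replicate number as a block). All 8 tested HoxB genes had a negative value in both series, with medians of −0.34 and −0.36 against 0.03 and 0.00 for all tested genes. The lowest of HoxB were Hoxb7 (−0.59, SE 0.23) in the S6K1 series and Hoxb6 (−0.60, SE 0.50) in the S6K1/S6K2 series. Of 10 tested HoxA genes, 8 had a positive value in each series, with medians of 0.29 and 0.23. The medians were −0.40 and 0.03 in HoxC and 0.41 and 0.04 in HoxD. Neighbouring genes of a cluster are not independent. Hoxb2, Hoxb6, Hoxb8 and Hoxc5 of the S6K1 series were lower in every KO library than in every WT RAS library (4.61% of all tested genes were), and in the S6K1/S6K2 series Hoxa11 was higher in every DKO library (3.36% were) and 0 members were lower in every one (2.79% were). Hoxa11, a gene of the forearm and the uterus, had 25, 26.1 and 25.1 CPM in WT RAS and 30.8, 33.9 and 28.3 CPM in DKO RAS. It did not pass in edgeR, and 1 of 31 tested members is near the share of all tested genes.

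With the replicate number as a block, the S6K1 comparison called 2 of 32 members, both higher, where 3.47% of all tested genes passed and 0.347% were higher. They were Hoxd13 and its neighbour Hoxd12. The labels do not say that KO and WT libraries of the same number share a litter, so the pairing by number was assumed. Hoxd13 had 35.2, 25.6 and 54.4 CPM in WT RAS and 81.7, 50.9 and 67.6 CPM in KO RAS (0.83, SE 0.16, adjusted p = 0.0381 in edgeR, against 0.81, SE 0.34, adjusted p = 0.677 in edgeR without the block). Hoxd12 had 6.47, 2.74 and 10.4 CPM and 15, 8.97 and 15.4 CPM (1.09, SE 0.22, adjusted p = 0.0414 in edgeR, against 1.02, SE 0.55, adjusted p = 0.878 in edgeR without the block). Both were higher in the KO library of each number, and the groups overlapped through the third WT line. Hoxd11, at 4.34, 3.14 and 6.37 CPM and 9.82, 7.90 and 8.02 CPM, and Hoxa13, at 7.0, 4.83 and 11.5 CPM and 14.5, 13.3 and 12.6 CPM, did not overlap between the groups (3.34% of all tested genes were higher in this way) and did not pass with the block (0.092 and 0.144 as adjusted p in edgeR).

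The body-position factors Pitx1 and Tbx4, both of the hindlimb, passed in the same fit. Pitx1 had 5.41, 3.22 and 3.38 CPM in WT RAS and 20.0, 14.9 and 9.96 CPM in KO RAS (log2 difference 1.89, SE 0.18 in edgeR with the block). Tbx4 had 7.45, 6.36 and 4.43 CPM and 19, 19 and 15.2 CPM (1.56, SE 0.14), and both were higher in every KO library. En1 (−0.55, SE 0.11) and the retinoid-binding gene Crabp1 (−0.84, SE 0.18) were lower. These were 3 of 17 tested body-position factors and 1 of 15 upstream regulators (3.47% of all tested genes passed), and 0 genes of the other 4 lists passed.

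Between DKO and WT RAS, Hoxd13 and Hoxd12 overlapped. Hoxd13 had 108, 115 and 122 CPM in WT RAS and 120.0, 134 and 110.3 CPM in DKO RAS (0.07, SE 0.18, adjusted p = 1 in edgeR). Hoxd12 had 29.1, 33 and 33.5 CPM and 22.6, 40.9 and 26.3 CPM (−0.10, SE 0.20, adjusted p = 1 in edgeR). The difference in loss effect between the series called 0 of 33 members in edgeR (0.00690% of all tested genes) and 0 in DESeq2, with 1 at an unadjusted p under 0.05 (1.23% of all tested genes), Hoxd11 (−0.87, SE 0.37, adjusted p = 1 in edgeR, chosen with its value known). Without the block, 0 genes of the 6 other lists passed in either series. Summed macrophage markers were 1778, 1440.1 and 309 CPM in WT RAS and 363, 220.3 and 94.2 CPM in KO RAS, and 413, 65.7 and 90.6 CPM in WT RAS and 100.2, 39.2 and 50.4 CPM in DKO RAS, and their part in the Hox values was not tested.

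WT lines of the S6K1 series differed in their Hox genes. A line was known by its number alone, so it cannot be told apart from anything else that a number shares. A test of line in the 6 WT libraries of the S6K1 series, with treatment as a term, called 11 of 32 members in edgeR (34.4%), where 15.8% of all tested genes passed. They were Hoxa3, Hoxa5, Hoxa7, Hoxa13, Hoxb9, Hoxc9, Hoxc10, Hoxd8, Hoxd10, Hoxd12 and Hoxd13. In each of them the third line was the highest or the lowest in both treatments. Hoxa5, which acts at the level of the neck and in the lung, had 8.25, 8.17 and 28.8 CPM in EV and 8.25, 8.53 and 19.9 CPM in RAS (line 3 against line 1 1.59 and line 2 against line 1 0.03 on the log2 scale, adjusted p = 0.00578 in edgeR). Hoxa3 gave 1.74 and 0.17 for the same contrasts (adjusted p = 0.0135 in edgeR). Hoxd13 gave 0.73 and −0.35 (adjusted p = 0.00474 in edgeR). These genes were higher in line 3, together with Hoxa7 (0.69 for line 3 against line 1), Hoxa13 (0.83), Hoxd10 (0.87) and Hoxd12 (1.27).

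The other 4 were lower in line 3. Hoxc9 had 15.7, 17.8 and 9.57 CPM in EV and 16.8, 20.6 and 7.01 CPM in RAS (line 3 against line 1 −0.94, adjusted p = 0.0234 in edgeR). Hoxd8 had 28, 25.7 and 14.6 CPM and 25.1, 28.6 and 16.2 CPM (−0.75, adjusted p = 0.0256 in edgeR), Hoxb9 gave −0.53 and Hoxc10 −0.89. Hoxa3, Hoxa5, Hoxd12 and Hoxd13 passed whichever library was left out, and the count of 11 fell to 5 without the first EV library and 4 without the first RAS library and rose to 19 without the third EV library. Macrophage markers also set line 3 apart, at 1565, 1196 and 319.7 CPM in EV and 1778, 1440.1 and 309 CPM in RAS, and their part was not tested. Of the other lists, 9 of 20 body-position factors and 7 of 14 upstream regulators passed this test (15.8% of all tested genes did), against 1 of 11 TALE cofactors, 1 of 29 Polycomb genes, 2 of 12 Trithorax and demethylase genes and 0 of 8 cluster noncoding transcripts. Tbx5, the forelimb gene, was among them, at 6.19, 11.4 and 24 CPM in EV and 3.01, 7.0 and 10.9 CPM in RAS.

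The line test of the S6K1/S6K2 series called 0 of 29 members in edgeR (0.539% of all tested genes), with 11 at an unadjusted p under 0.05 (11.6% of all tested genes) and 2 called in DESeq2. Hoxa5 had 5.77, 9.02 and 30.4 CPM in EV and 11.8, 8.24 and 25.1 CPM in RAS (line 3 against line 1 1.69, adjusted p = 0.161 in edgeR). Hoxd8 had 31.5, 19.5 and 8.68 CPM and 22.4, 14.2 and 12.4 CPM (−1.35, adjusted p = 0.281 in edgeR). The third line again held the highest Hoxa3, Hoxa5 and Hoxa7 and the lowest Hoxd8 in both treatments. The other members called in the S6K1 series did not repeat in EV. There the third line minus the mean of the first and second, as log2(CPM + 0.5), was 0.89 in the S6K1 series and −0.64 in the S6K1/S6K2 series for Hoxd13. It was −0.54 and 1.21 for Hoxb9 and −0.77 and 0.73 for Hoxc9. Hoxa13, Hoxc10, Hoxd10 and Hoxd12 also changed sign. The count of 0 called members depended on single libraries, with 6 called without the first EV library and 15 without the first RAS library.

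**Figure D5:**
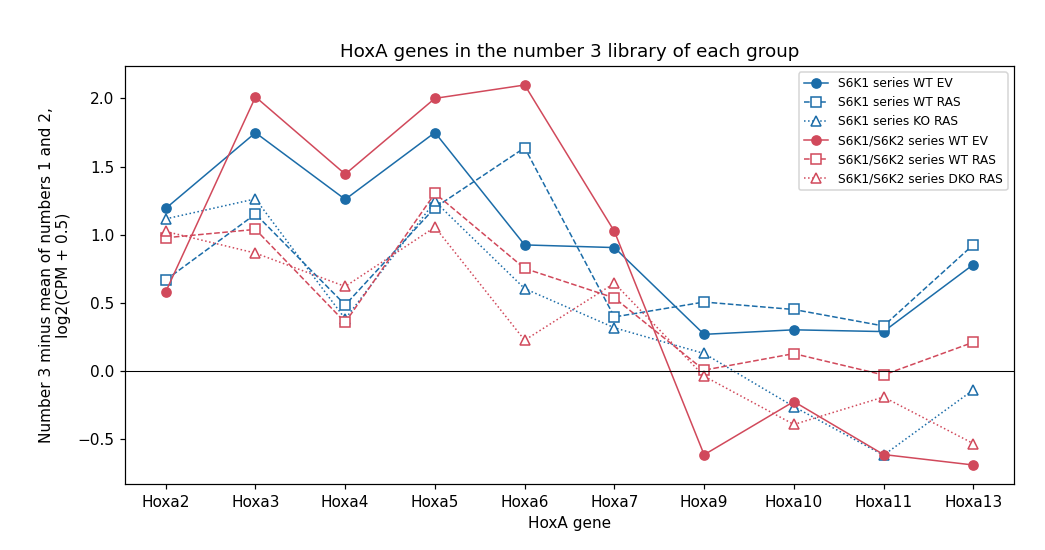
Level of each HoxA gene in the number 3 library minus the mean of numbers 1 and 2, on the log2(CPM + 0.5) scale (y axis), for the 6 groups (blue, S6K1 series; red, S6K1/S6K2 series; filled, EV). Hoxa2 to Hoxa7 are above 0 in all 6 groups, and Hoxa9 to Hoxa13 lie on both sides of 0.

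Hoxa2 to Hoxa7 were highest in the third library of every group, and so was Hoxc4. They made up 7 of 33 members, where 1.63% of all tested genes were highest in the third library of all 6 groups. No member was lowest there in all 6 (0.932% of all tested genes). For Hoxa5 the third library exceeded the mean of the other two by 1.75, 1.20, 1.25, 2.0, 1.30 and 1.06 on the log2 scale, in the order EV, RAS and KO of the S6K1 series and then EV, RAS and DKO of the S6K1/S6K2 series. For Hoxa9, next to Hoxa7 on the chromosome, the differences were 0.27, 0.51, 0.13, −0.61, 0.01 and −0.04. For Hoxa7 itself they were 0.91, 0.40, 0.32, 1.03, 0.54 and 0.65, all above 0. The KO RAS libraries had 9.18, 11.2 and 24.7 CPM of Hoxa5 and the DKO RAS libraries 10.4, 8.70 and 20.3 CPM. EV and RAS libraries of a line are not independent, the pattern was noticed in these data, and the labels do not say what a number shares between the series.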

How the data were processed

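The authors deposited raw counts per gene for 18 libraries of stranded, single-end mRNA sequencing. Their methods name TopHat, mm9 and HTSeq, while the submitters' processing notes name CASAVA, STAR 2.7.1a, mm10 and DESeq2 1.28.1, so aligner and build are not settled. Whether strand was used in counting is not given in the sources used here.

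Counts were tested with edgeR 4.0.16 (R 4.3.3) in its quasi-likelihood framework, after filterByExpr with a minimum count of 10 and TMM scaling, and adjusted p-values (Benjamini-Hochberg, threshold 0.05) were computed over all tested genes. Each RAS and loss test was fitted on the 9 libraries of its series, and comparisons between series on all 18. Without a block, these fits estimate the spread as if libraries of the same line were independent. Line was tested with an F test in the 6 WT libraries of a series, with treatment as a term. DESeq2 1.42.0, its size factors, other filters, the replicate block and leaving out each library were alternatives. The scripts were tested on simulated data. CPM were scaled by TMM over 18 libraries, and limits for a count of 0 use 3 counts and cover counting error only. Of 37 members, 33 passed the filter over all libraries and in the S6K1 series and 31 in the S6K1/S6K2 series. Hoxb1, Hoxb13, Hoxc12 and Hoxd1 were not tested anywhere, and Hoxc11 and Hoxd3 not in the S6K1/S6K2 series.

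Groups and numbers came from the labels. EV and RAS libraries of WT cells with the same number were taken as 1 line, and the deviations of same-numbered libraries from their group means correlated at 0.42 to 0.66 in the S6K1 series and 0.30 to 0.38 in the S6K1/S6K2 series. KO and WT RAS libraries of the S6K1 series, from littermates, correlated at 0.37 to 0.67 by number, so all 3 were treated as paired. The labels do not say that the same number marks the same litter, so this pairing was assumed from the same data. Where lines share a mother, p-values measure only the spread between these libraries.

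Hox genes and all lists were chosen with earlier results of these data known. Values per library are given for the 2 highest members of each cluster per kilobase and for up to 8 called members per test, without or, where numbers pair, with the block, and up to 4 genes are named per other list. Hoxa11 and Tbx5 were added after their values were seen. Of 118 list genes 112 were matched, and all 54 markers were. A further 2 genes are not reported here. Gene positions and lengths are from the NCBIM37 annotation, whose identifiers match the counts, and promoters from RefSeq (GRCm38.p6).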

Additional observations from a re-analysis of the deposited data

How the results depend on the processing

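For RAS in the S6K1 series, the count of Hox genes called was 0 in edgeR, 1 with DESeq2 (Hoxb4), 9 with the replicate block and 0 to 1 when single libraries were left out. For RAS in the S6K1/S6K2 series it was 4, with 2 when only the 6 compared libraries were fitted, 3 with the replicate block and 2 to 7 when single libraries were left out. For loss of S6K1 it was 0, with 2 under the replicate block, and 0 to 0 when single libraries were left out. For loss of both kinases it was 0 throughout, 0 to 0 when single libraries were left out, and those same-numbered libraries did not all deviate together (correlations of 0.29, 0.42 and −0.03), so they share only a number. Both differences between the series were 0 under each alternative, the replicate block and left-out libraries (0 to 0) included. For WT EV between the series it was 14, with 20 in DESeq2 and without a filter, 16 with DESeq2 size factors, 4 to 21 when single libraries were left out, and 0 with the WT RAS libraries in place of WT EV, an alternative chosen after seeing the data. No block could be fitted there, since it is confounded with series. For line in the S6K1 series it was 11, with 21 without a filter and 4 to 19 when single libraries were left out. For line in the S6K1/S6K2 series it was 0, with 2 in DESeq2, 12 without a filter and 0 to 15 when single libraries were left out. The cause of these shifts was not tested. One named value turned in sign, Hoxa3 with RAS in the S6K1 series, from −0.81 to 0.10 without the third WT EV library, with a range of −1.40 to 0.10 over left-out libraries. Of the other values for single genes under alternatives that keep every library, 168 kept their direction and side of the threshold, 12 newly passed and 20 no longer passed. When single libraries were left out, 174 values for single genes kept both and 65 no longer passed. With 3 libraries a group, a single line can decide a count, and genes near the floor of 3 counts, such as Hoxd3, are least precise.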
